A study of Mus musculus with 9 samples.

Results

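Imprinted genes that act on growth, or that mark imprinted growth loci, were followed in the E12.5 mouse cerebral cortex after conditional loss of Cnot3. They were Igf2, Igf2r, H19, Grb10, Plagl1, Dlk1, Meg3, Rian, Peg3 and Mest, a set of 10 of the 57010 genes in the counts table, matched by symbol to their Ensembl identifiers. Each value came from the cortex of a single embryo, from 3 controls (Ctrl), 3 embryos with conditional knockout of Cnot3 (cKO) and 3 with double conditional knockout of Cnot3 and Trp53 (dcKO). CNOT3 is a subunit of the CCR4-NOT complex, which shortens poly(A) tails and starts mRNA decay. Cnot3 was deleted with Emx1-Cre in radial glia of the cortex and in the cells that derive from them, in both mutants, and Trp53, which encodes p53, was deleted by the same Cre in the dcKO only. Cells that Emx1-Cre does not target, such as meninges, vessels, blood and microglia, keep both genes. The controls are labelled WT, and whether they carried Cre or floxed alleles is not given in the sources used here.

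An imprinted gene is transcribed mainly from the maternal or mainly from the paternal copy, and many such genes act on the size of the embryo. Several paternally expressed genes promote growth, among them Igf2, which encodes insulin-like growth factor 2, Dlk1, Peg3, Plagl1 and Mest. Several genes that are maternally expressed in many tissues, though not necessarily in the brain, restrain growth. Among them are Igf2r, whose receptor takes IGF2 to the lysosome, and the long noncoding RNA H19. Grb10, an adaptor that dampens insulin and IGF receptor signalling, is another. Plagl1 encodes a zinc finger transcription factor reported to act on other imprinted genes. The counts do not separate the parental copies, so every level below is the sum of both.

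Some of the genes are neighbours, and 5 host microRNAs. H19 (ENSMUSG00000000031.18) was annotated at chr7:142575529-142578143 and Igf2 (ENSMUSG00000048583.17) at chr7:142650766-142666816, both on the minus strand, with 72.6 kb between them. Dlk1 (ENSMUSG00000040856.18) at chr12:109452823-109463336 was followed on the plus strand by Meg3 (ENSMUSG00000021268.19) at chr12:109541001-109571726 and Rian (ENSMUSG00000097451.12) at chr12:109603940-109661716, with gaps of 77.7 and 32.2 kb. The others stood alone, with Peg3 (ENSMUSG00000002265.18) at chr7:6703892-6730431, Plagl1 (ENSMUSG00000019817.19) at chr10:13060504-13131694, Grb10 (ENSMUSG00000020176.18) at chr11:11930508-12038683, Mest (ENSMUSG00000051855.16) at chr6:30723547-30748465 and Igf2r (ENSMUSG00000023830.15) at chr17:12682406-12769664. These positions are from GENCODE on GRCm38, while the reads had been aligned to mm39. The precursor of miR-675 lies in an exon of H19, Igf2 hosts miR-483 and Mest hosts miR-335. Meg3 and Rian host members of the large microRNA cluster of the Dlk1 locus, such as miR-770 and miR-370.

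These 5 host genes held 15 mature microRNAs from 8 precursors in RefSeq (GRCm38.p6), and their 15 seeds were all different. One per host is shown because the host transcript's level is what the counts report, whereas the mature form is too short for these poly(A) libraries. The seed, bases 2 to 8, is in capitals.
mmu-miR-675-5p (H19): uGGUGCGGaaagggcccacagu
mmu-miR-483-3p (Igf2): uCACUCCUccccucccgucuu
mmu-miR-770-5p (Meg3): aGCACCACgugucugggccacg
mmu-miR-370-3p (Rian): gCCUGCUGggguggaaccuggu
mmu-miR-335-5p (Mest): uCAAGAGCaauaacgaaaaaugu
They lie at chr7:142577112-142577133 (minus), chr7:142654932-142654952 (minus), chr12:109563710-109563731 (plus), chr12:109618305-109618326 (plus) and chr6:30741314-30741336 (plus), in the order shown. The rows of Mir675, Mir770, Mir370, Mir341, Mir1188 and Mir335 held 0 reads in every embryo, and Mir483 held 1 read in 1 Ctrl embryo, so the counts say nothing of the microRNAs themselves.

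The libraries held 21193798 to 45073349 counted reads. Cnot3 was at 98.2 to 117.3 CPM (reads per 1000000 counted reads, with the library sizes scaled to each other) in Ctrl, at 14.6 to 17.3 CPM in cKO, and at 7.33, 48.2 and 19.04 CPM in dcKO replicates 1 to 3. Trp53 was at 215 to 254 CPM in Ctrl and at 164 to 167 CPM in cKO, against 15.1, 110 and 20.6 CPM in the 3 dcKO embryos, so dcKO replicate 2 retained more of both targeted transcripts than the other dcKO embryos. Read counts of dcKO embryos also differed more from each other than those of Ctrl or cKO embryos did, with a mean chi-square per gene of 185 to 507 between dcKO pairs and 15.6 to 53.8 between the other pairs. Their base composition also differed. Genes were split into 5 bins by the GC content of their longest transcript, and the highest bin was set against the lowest, relative to the Ctrl mean. This GC trend stood at -1.77 and -2.13 (log2) in dcKO replicates 1 and 2 and at 0.28 in replicate 3. It was -0.49 to -0.82 in cKO and -0.31 to 0.19 in Ctrl. The log2 fold changes of the 10 genes in dcKO are therefore also given without replicate 2 and without replicate 3, and a fit corrected for transcript GC content is set beside the first fit. The GC trend of cKO embryos did not overlap with that of Ctrl embryos. An effect of genotype on the trend and a property of the libraries cannot be told apart, and the correction may remove either. The tissue carried its own markers, with the summed radial glia list at 3301 to 4439 CPM in all embryos and the subpallium list at 1.19 to 9.12 CPM. The choroid plexus list was at 1.48 to 2.68 CPM in Ctrl and 16.7 to 112 CPM in the mutants, and Ttr, its defining marker, had 0 reads in all Ctrl embryos.

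In Ctrl cortices the 10 genes spanned most of the expression range. Grb10 was the most abundant per length, at 113 ± 3.71 CPM per kb of exon (mean ± SD, n = 3), and stood in percentile 99.3 of the CPM of all genes tested. H19 followed at 89.8 ± 20.7 CPM per kb, then Mest at 65.4 ± 12.1 and Plagl1 at 46.4 ± 3.63 CPM per kb. H19 and Mest overlapped in their embryos, whereas the embryos of Grb10 and of Plagl1 overlapped with no neighbour. Igf2r stood at 15.3 ± 1.39 and Peg3 at 9.51 ± 0.255 CPM per kb. A low group followed, with Rian at 1.91 ± 0.276, Dlk1 at 1.37 ± 0.355, Igf2 at 1.23 ± 0.0790 and Meg3 at 0.350 ± 0.0840 CPM per kb. Dlk1 overlapped with both Rian and Igf2, while the embryos of Meg3 were the lowest and separate. The place of Igf2, a leading fetal growth factor, is uncertain, since 62.8% of its exonic bases are also annotated to another gene. The exon lengths are unions over all annotated transcripts, which lowers the value of genes such as Meg3 with many long isoforms. In cKO the leading order became H19, Mest and Grb10, with H19 at 107 ± 16.1, Mest at 82.8 ± 22.1 and Grb10 at 61.6 ± 7.19 CPM per kb, and the embryos of neighbours in it overlapped.

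**Figure D1:**
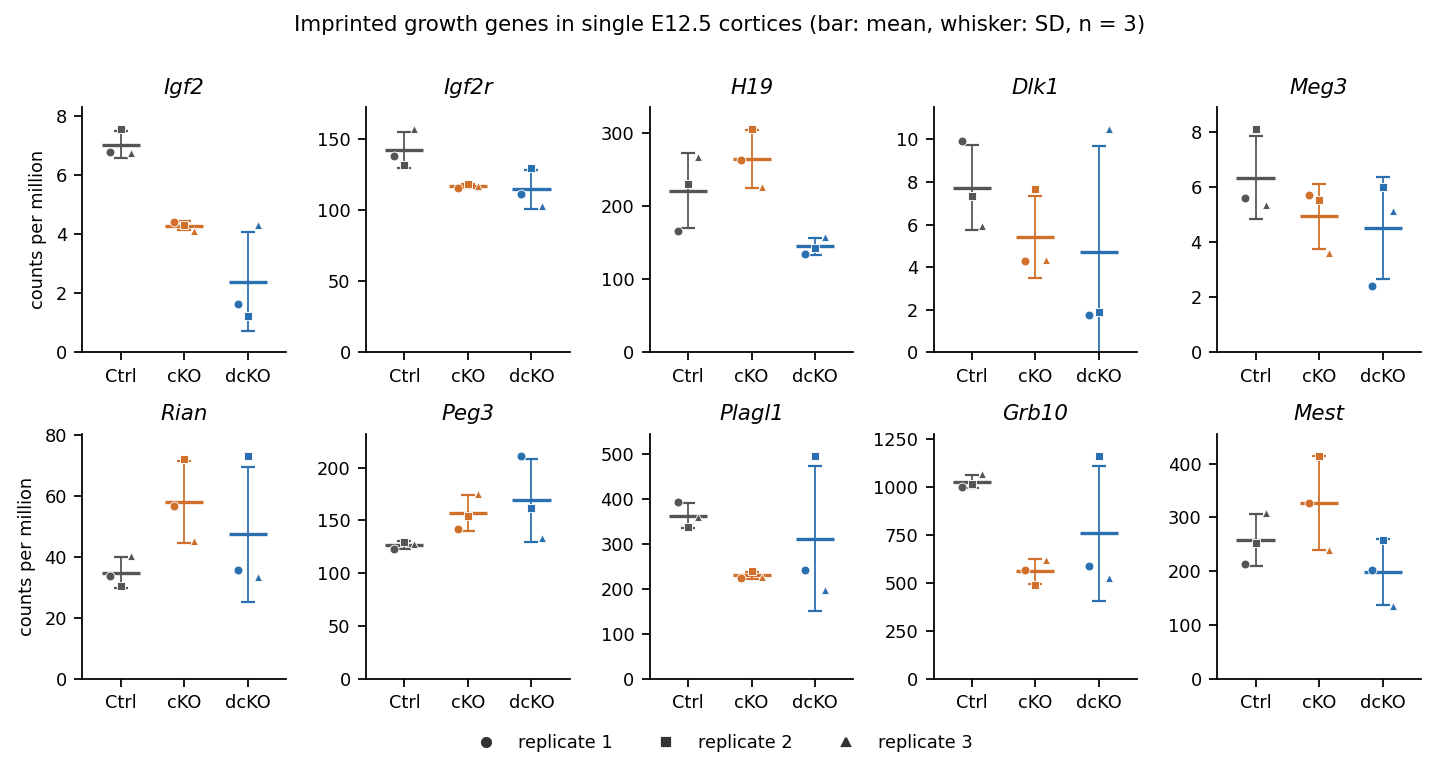
CPM (linear axis from 0) of the 10 imprinted growth genes in the 3 Ctrl, 3 cKO and 3 dcKO cortices, 1 symbol per embryo, with the mean (bar) and SD (whisker, n = 3, not drawn below 0). Grb10 and Plagl1 lie below every Ctrl embryo in cKO and return to the Ctrl range or above it in dcKO replicate 2 alone, and Igf2 lies below every Ctrl embryo in both mutants.

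The first comparison was cKO against Ctrl. Grb10, Plagl1, Igf2 and Igf2r lay below every Ctrl embryo, and Rian and Peg3 above. The main test was edgeR's quasi-likelihood test over all 9 embryos and 13680 genes, with a call at Benjamini-Hochberg adjusted p under 0.05 and a fold over 2. It called 0 of the 10 genes in cKO, where it called 0.0146% of all genes tested up and 0.00% down. At an unadjusted p under 0.05 it gave 1 higher gene, Rian, and 1 lower gene, Grb10, against 15.3% and 11.7% of all genes. DESeq2 also called 0 of the 10 genes, and 4.94% of all genes up and 3.87% down. At a DESeq2 adjusted p under 0.05 with no fold limit, 0 genes were higher and 1 was lower, Grb10, as were 9.60% and 7.07% of all genes. Groups did not overlap for 2 genes above and 4 below Ctrl, where 29.2% and 28.0% of all genes did so, and the median log2 fold change of the 10 genes was -0.32 against 0.01 over all genes tested. In bulk tissue, fewer cells of a type and less RNA per cell cannot be told apart.

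Grb10 had the lowest adjusted p of the set in cKO. It was at 1002, 1014 and 1066 CPM in the Ctrl embryos, at 568, 491 and 621 CPM in the cKO embryos, and at 589, 1161 and 524 CPM in the dcKO embryos. Each cKO embryo was thus well below the lowest Ctrl, and dcKO replicate 2 was the 1 mutant above every Ctrl embryo. The log2 fold change in cKO was -0.88 ± 0.28 (SE), with an adjusted p of 0.0887 by edgeR's quasi-likelihood test and 0.0318 by DESeq2. Under the edgeR fit with GC correction it was -1.01 with adjusted p = 0.0336, which made Grb10 the 1 gene of the set called, where 3.02% of all genes were called up and 1.54% down. That call was lost without any 1 of the Ctrl or cKO embryos and kept without any 1 of the dcKO embryos, while the log2 fold change stayed between -1.09 and -0.96.

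Plagl1 moved with Grb10 across the embryos. Its levels were 393, 337 and 359 CPM in Ctrl and 225, 240.0 and 227 CPM in cKO, a narrow range in cKO below every Ctrl. The dcKO embryos had 243, 496 and 198 CPM, so replicate 2 was again the exception and exceeded the Ctrl embryos. The log2 fold change in cKO was -0.65 ± 0.30 (SE), and edgeR's quasi-likelihood test gave an adjusted p of 0.186. With GC correction it was -0.87 with an edgeR adjusted p of 0.0436, short of the fold limit. That edgeR adjusted p rose to between 0.0959 and 0.152 without any 1 of the Ctrl or cKO embryos. It stayed under 0.05 without any 1 of the dcKO embryos. Over the 9 embryos the log2 CPM of Plagl1 and Grb10 had a Pearson r of 0.94, the highest among the 10 genes, and the embryos in it share genotype, depth and GC trend.

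The fit over 9 embryos takes its error from all 3 genotypes, and the dcKO embryos were the least alike. A fit of only the 6 Ctrl and cKO embryos called 0 of the 10 genes at the fold limit, and 1758 of the 13680 genes tested. Without a fold limit, a rule added after the values were seen, it found 4 genes lower and 2 higher at an edgeR adjusted p under 0.05, where 24.2% and 24.0% of all genes were lower and higher. Grb10 had an edgeR adjusted p of 1.10e-04 in that fit, Plagl1 2.12e-04, Rian 0.00535, Peg3 0.0178, Igf2 0.0181 and Igf2r 0.0192. With GC correction in the same 6 embryos, Grb10, Plagl1, Igf2r and Rian still passed, Igf2 and Peg3 did not, and H19 was higher with an edgeR adjusted p of 0.0246. The shares of all genes were then 26.4% lower and 22.3% higher.

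**Figure D2:**
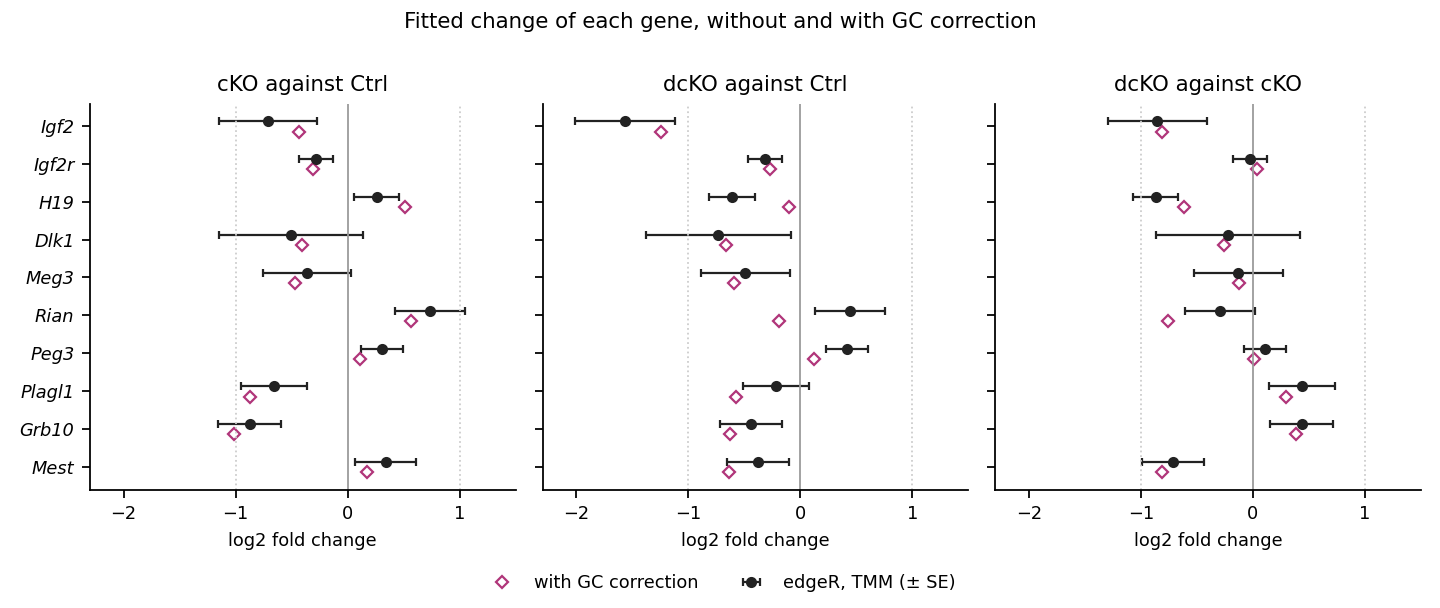
Fitted log2 fold change of each gene in cKO against Ctrl, dcKO against Ctrl and dcKO against cKO (black points, edgeR with TMM scaling, whiskers ± SE, n = 3 embryos per genotype) and the same with GC correction (open diamonds), with dotted lines at a log2 fold change of 1 and -1. H19 in dcKO against Ctrl goes from -0.61 to -0.10 and Rian from 0.44 to -0.19 with the correction, while Grb10 in cKO goes from -0.88 to -1.01.

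Among the IGF2 genes, the ligand and its clearance receptor lay below every Ctrl embryo in cKO, and neither passed the test. Igf2 was at 6.77, 7.54 and 6.74 CPM in Ctrl and at 4.41, 4.31 and 4.11 CPM in cKO, without overlap and with a tight spread in both genotypes. In cKO its log2 fold change was -0.71 ± 0.44 (SE) with adjusted p of 0.323 by edgeR and 0.265 by DESeq2, and -0.43 with GC correction. Igf2r was at 138, 132 and 157 CPM in Ctrl, at 115, 118 and 116.8 CPM in cKO and at 112, 129.7 and 103 CPM in dcKO, so every mutant embryo was below every Ctrl. Its log2 fold changes were small, at -0.29 ± 0.15 in cKO and -0.31 ± 0.15 in dcKO (SE), with edgeR adjusted p of 0.252 and 0.200. They were -0.31 and -0.27 with GC correction, and in dcKO -0.41 without replicate 2 and -0.24 without replicate 3. A share of 62.8% of the exonic bases of Igf2 is also annotated to Gm49394 on the same strand, a gene with 0 reads in all embryos, and how reads in the shared stretch were assigned is not given in the sources used here. The level of Igf2 is uncertain for that reason.

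H19, which is known to share enhancers with Igf2, overlapped with Ctrl in cKO. It was at 166, 230.1 and 267 CPM in Ctrl and at 263, 305 and 225 CPM in cKO, and its log2 fold change was 0.26 ± 0.20 (SE) with an edgeR adjusted p of 0.438. With GC correction it was 0.51 (edgeR adjusted p = 0.160), and leaving out 1 embryo gave 0.09 (without Ctrl replicate 1) to 0.42. The ratio of H19 to Igf2 reads within an embryo does not depend on library scaling, and both transcripts had a GC content of 55.8%. It was 24.5, 30.5 and 39.6 in Ctrl and 59.5, 70.7 and 54.9 in cKO, with no overlap and a mean difference of 0.99 on the log2 scale. The exact two-sided permutation test gave p = 0.1, the smallest value that 3 against 3 embryos allow. It was 1 of 5 ratios computed within embryos, all chosen after the values of the genes had been seen. Of the others, Igf2r to Igf2 was 20.5, 17.5 and 23.3 in Ctrl, 26.1, 27.4 and 28.4 in cKO and 68.2, 105.8 and 23.9 in dcKO. It differed from Ctrl by 0.43 in cKO and 1.46 in dcKO on the log2 scale, without overlap (exact permutation p = 0.1 for both). Replicate 3 of dcKO was just above the highest Ctrl embryo, and the difference in dcKO was 2.07 without it. With GC correction the fitted difference between Igf2r and Igf2 was 0.13 (cKO) and 0.97 (dcKO), against 0.43 and 1.25 without it. That between H19 and Igf2 was 0.95 and 1.14, against 0.97 and 0.96. The ratios of Rian and Dlk1 to their neighbours are given with their locus.

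At the Dlk1 locus the 3 genes did not share a direction in cKO. Rian, a noncoding RNA that hosts small nucleolar RNAs and microRNAs, was at 33.8, 30.5 and 40.4 CPM in Ctrl and at 56.8, 72.2 and 45.3 CPM in cKO, all above Ctrl. Its log2 fold change was 0.74 ± 0.31 (SE), with an edgeR adjusted p of 0.167. Meg3, a noncoding RNA of the same maternal transcript domain, was at 5.59, 8.08 and 5.34 CPM in Ctrl and at 5.69, 5.50 and 3.58 CPM in cKO, which overlap. Rian to Meg3 reads were therefore 6.04, 3.77 and 7.57 in the Ctrl embryos and 9.99, 13.1 and 12.7 in the cKO embryos, a difference of 1.09 on the log2 scale with no overlap (exact permutation p = 0.1). Rian had the lowest GC content of the set, 35.8%, and Meg3 had 49.2%, and with GC correction the fitted log2 fold changes in cKO were 0.57 and -0.47, against 0.74 and -0.36 without it. In dcKO the ratio was 14.8, 12.2 and 6.52 (log2 difference 0.92, exact permutation p = 0.2), and the fitted difference between the genes went from 0.93 to 0.41 with GC correction. Dlk1, a transmembrane and secreted protein related to Notch ligands, was at 9.91, 7.34 and 5.95 CPM in Ctrl and at 4.31, 7.66 and 4.34 CPM in cKO, which overlap, and its log2 fold change of -0.51 ± 0.64 (SE) did not pass the test (edgeR adjusted p = 0.643). With GC correction it was -0.40. Dlk1 to Meg3 reads overlapped between cKO and Ctrl (log2 difference -0.16, exact permutation p = 0.8), and Dlk1 to Rian reads were below every Ctrl embryo in cKO (log2 difference -1.25, exact permutation p = 0.1). In dcKO both overlapped with Ctrl (exact permutation p = 0.5 and 0.4). With GC correction the fitted difference between Dlk1 and Rian was -0.97 (cKO) and -0.48 (dcKO), against -1.24 and -1.17 without it.

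Peg3 and Mest were the other paternally expressed genes. Peg3, a zinc finger protein, was at 123, 129 and 128 CPM in Ctrl, at 142, 154 and 175 CPM in cKO and at 211, 162 and 134 CPM in dcKO, above every Ctrl in all 6 mutant embryos. The log2 fold changes were 0.31 ± 0.19 in cKO and 0.41 ± 0.19 in dcKO (SE), with edgeR adjusted p of 0.313 and 0.171, and with GC correction they were 0.11 and 0.12. In dcKO Peg3 was at 0.44 without replicate 2 and at 0.56 without replicate 3 (edgeR adjusted p = 0.00983, where 25.5% of all genes were higher at an adjusted p under 0.05). Without dcKO replicate 1, the embryo at 211 CPM, it was at 0.22 (edgeR adjusted p = 0.476), and at -0.024 with GC correction. Mest, a protein of the hydrolase fold, was at 214, 252 and 309 CPM in Ctrl, at 327, 414 and 239 CPM in cKO and at 203, 259 and 136 CPM in dcKO. The groups overlapped, and the log2 fold changes were 0.34 ± 0.27 and -0.37 ± 0.27 (SE) with edgeR adjusted p of 0.455 and 0.381. With GC correction they were 0.18 and -0.64 (edgeR adjusted p = 0.581 and 0.107). Leaving out 1 embryo gave 0.13 to 0.51 in cKO and -0.61 (without dcKO replicate 2) to -0.16 (without dcKO replicate 3) in dcKO. The antisense gene Copg2 shares 23.1% of the exonic bases of Mest. The libraries were stranded, but the strand setting of the counting is not given in the sources used here, so the reads of these genes are uncertain.

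**Figure D3:**
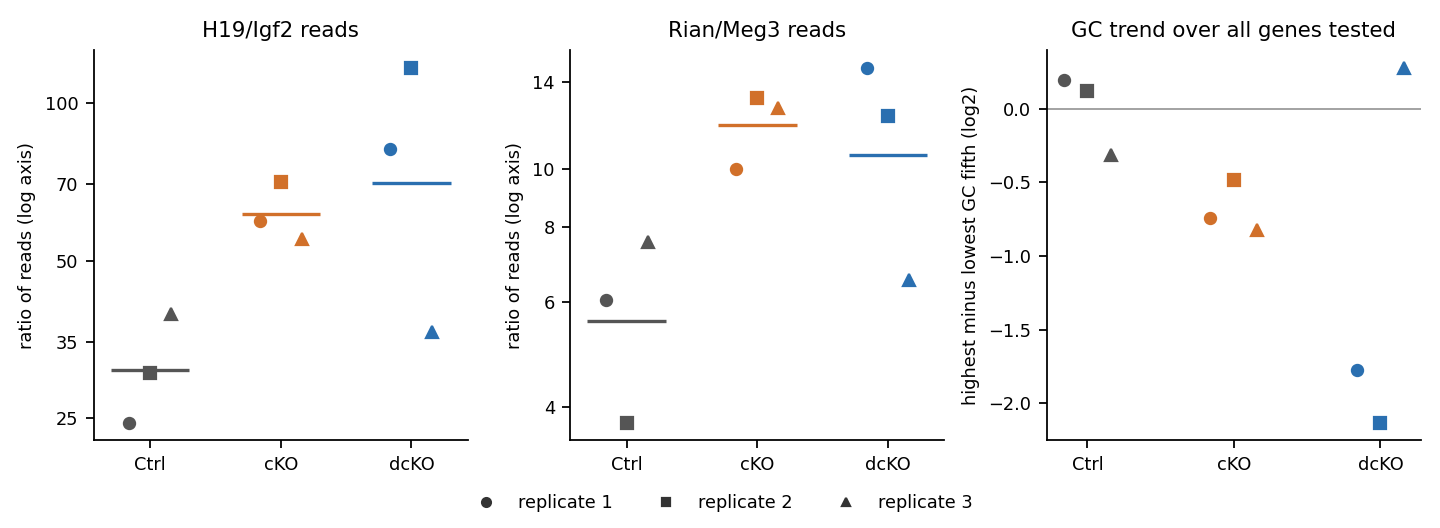
Ratio of H19 to Igf2 reads (left) and Rian to Meg3 reads (middle) within each embryo, on log axes with the mean of log values as a bar, and the GC trend of each library (right), the log2 ratio to the Ctrl mean in the highest minus the lowest of 5 GC bins of all genes tested. Both ratios are higher in every cKO embryo than in every Ctrl embryo, and dcKO replicate 3 lies within the Ctrl range of both and has a GC trend of 0.28, against -1.77 and -2.13 in the other dcKO embryos.

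The second comparison, dcKO against Ctrl, used the same 3 Ctrl embryos, so its values are not independent of those in cKO. Igf2 showed the largest difference of the 10 genes. edgeR's quasi-likelihood test called 0 of the 10 genes (0.00% of all genes tested up and 0.00% down), and an unadjusted p under 0.05 was reached by 1 higher gene, Peg3, and 2 lower genes, H19 and Igf2 (18.0% and 11.2% of all genes). DESeq2 called 1 gene lower, Igf2, where it called 4.66% of all genes up and 3.79% down. Without the fold limit, 0 genes were higher by DESeq2 and 2 were lower, H19 and Igf2, against 10.3% and 7.40% of all genes. With GC correction edgeR called 0 of the 10 genes, and 0.00737% of all genes up. The groups did not overlap for 1 gene above Ctrl, Peg3, and 3 below, Igf2, Igf2r and H19, against 15.6% and 11.2% of all genes. The median log2 fold change of the 10 genes was -0.41, against 0.11 for all genes tested.

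Igf2 was at 1.64, 1.23 and 4.30 CPM in dcKO, all below the lowest Ctrl value of 6.74 CPM, and replicate 3 was at the cKO level. Its log2 fold change was -1.56 ± 0.45 (SE), a fold of 0.338, with an edgeR adjusted p of 0.0659. DESeq2 gave -1.60 with an adjusted p of 0.00611, and that call was lost when Ctrl replicate 1 or Ctrl replicate 2 was left out. It was -1.25 without dcKO replicate 2 (edgeR adjusted p = 0.0597). Without dcKO replicate 3 the log2 fold change was -2.29 (edgeR adjusted p = 5.51e-04), in a fit that called 15.3% of all genes lower and 8.46% higher. With GC correction it was -1.24 over all embryos (edgeR adjusted p = 0.0571) and -1.56 without dcKO replicate 3 (edgeR adjusted p = 0.00955), where 4.71% of all genes were called lower. The reads behind these values were few, with 48 to 187 reads per embryo.

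Dlk1 followed the same split among the dcKO embryos, at 1.75, 1.86 and 10.5 CPM, with replicates 1 and 2 below every Ctrl and replicate 3 above every Ctrl. A log2 fold change of -0.73 ± 0.65 (SE) had an edgeR adjusted p of 0.468. It became -2.09 without dcKO replicate 3 (edgeR adjusted p = 0.00211) and -0.35 without dcKO replicate 2 (edgeR adjusted p = 0.730). Igf2 and Dlk1 had a Pearson r of 0.86 over the 9 embryos, as a description, and both were lowest in the embryos with the strongest GC trend. With GC correction the log2 fold change of Dlk1 was -0.66 over all embryos, and without dcKO replicate 3 it was -1.73 (edgeR adjusted p = 0.0149), against -2.09 uncorrected.

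H19 was at 134, 143 and 158 CPM in dcKO, a narrow range below every Ctrl and every cKO embryo. Against Ctrl its log2 fold change was -0.61 ± 0.20 (SE), with adjusted p of 0.0891 by edgeR and 0.0368 by DESeq2, and the exact permutation p was 0.1. With GC correction it was -0.10 (edgeR adjusted p = 0.810), and it was -0.60 without dcKO replicate 2 and -0.67 without dcKO replicate 3 (edgeR adjusted p = 0.0184, where 23.7% of all genes were lower at an adjusted p under 0.05). The H19 to Igf2 ratio was 81.7, 116.6 and 36.6 in the dcKO embryos, so 2 embryos were above every Ctrl and replicate 3 was inside the Ctrl range (log2 difference 1.19, exact permutation p = 0.2).

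Summed markers of meninges, endothelium, blood and microglia lay below every Ctrl embryo in dcKO, and those of pericytes overlapped with Ctrl. edgeR called 0 genes of these 5 lists in either mutant. At an unadjusted p under 0.05 in dcKO it had 4 lower of 11 tested meninges genes, 5 of 10 for endothelium, 2 of 7 for pericytes, 5 of 9 for blood and 1 of 7 for microglia, and 0 higher. By that rule 11.2% of all genes were lower and 18.0% higher. In cKO there were 2 lower meninges genes, 3 higher blood genes and 1 higher microglia gene, against 11.7% of all genes lower and 15.3% higher. Igf2, H19, Mest and Igf2r are known to be expressed in mesenchyme and vessels of the embryo, and the summed levels of these marker lists are therefore given beside them. The meninges list of 15 genes summed to 1479 to 1656 CPM in Ctrl, 1118 to 1329 CPM in cKO and 835 to 1108 CPM in dcKO. Of its 11 tested genes DESeq2 called 3 lower in dcKO, where it called 3.79% of all genes lower. The endothelium list of 10 genes summed to 254 to 339, 241 to 342 and 171 to 184 CPM in the same order, and the pericyte list of 7 genes to 186 to 238, 140 to 183 and 85.8 to 212 CPM. The blood list of 9 genes summed to 7691 to 11462, 9532 to 14502 and 4948 to 6785 CPM, and the microglia list of 10 genes to 54.8 to 61.5, 66.5 to 133 and 25.5 to 45.1 CPM. DESeq2 called 3 of the 10 endothelium genes lower in dcKO, 1 of 7 for pericytes, 4 of 9 for blood and 0 of 7 for microglia. In cKO it called 1 microglia gene higher and 0 others in these lists, against 4.94% of all genes higher and 3.87% lower. H19 and Mest had their highest group mean in cKO and their lowest in dcKO, as did the blood and microglia sums and, by a small margin over Ctrl (306.2 against 305.2 CPM), the endothelium sum. The meninges and pericyte sums had their highest mean in Ctrl and their lowest in dcKO. No gene of these 5 lists was at 0 in all Ctrl embryos, and the part of such cells in the imprinted gene levels was not tested. Of the 10 markers of radial glia, which Emx1-Cre targets, 6 lay below every Ctrl embryo in cKO and 1 above (28.0% and 29.2% of all genes), with a median log2 fold change of -0.36. edgeR called 0 of them, with 4 lower and 0 higher at an unadjusted p under 0.05, and DESeq2 called 3 lower in cKO (Emx1, Hes5 and Lhx2), as it did 3.87% of all genes, and 0 in dcKO. In dcKO 1 radial glia marker lay below every Ctrl embryo and 0 above (11.2% and 15.6% of all genes), with a median log2 fold change of 0.18. Grb10 and Plagl1 were below Ctrl in the same cKO embryos, and the part of these cells in their levels was not tested.

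**Figure D4:**
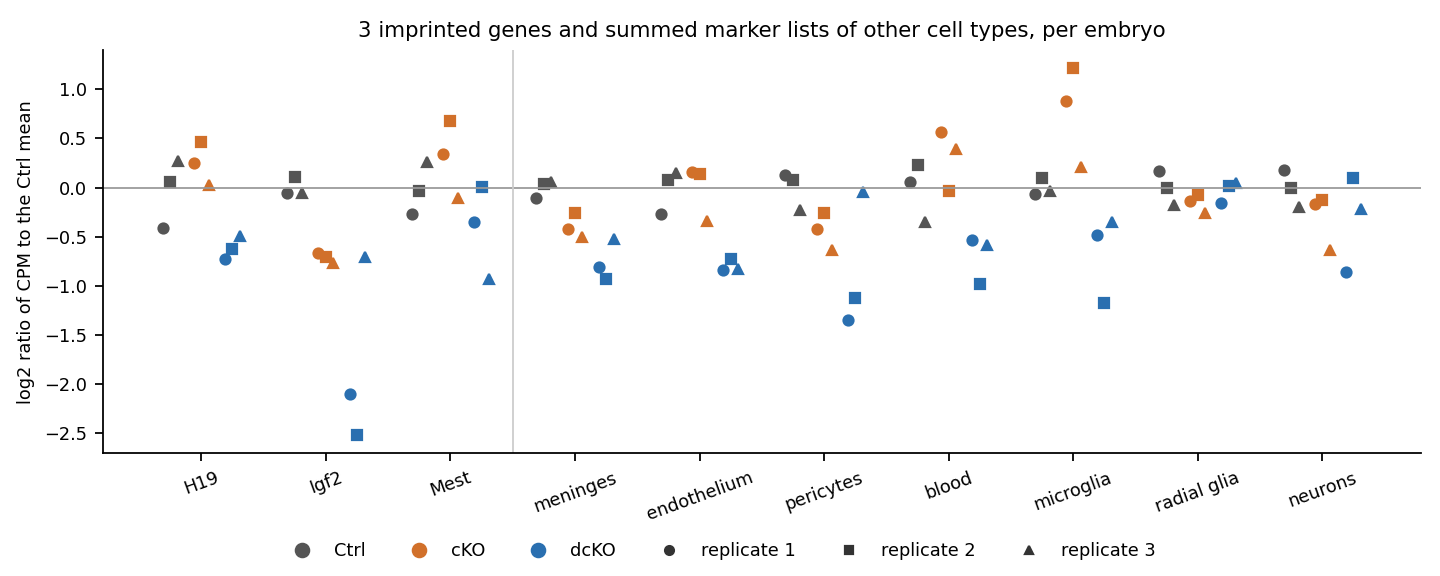
Log2 ratio of CPM to the Ctrl mean for H19, Igf2 and Mest (left of the line) and for the summed CPM of marker lists (right of it), 1 symbol per embryo. All 3 dcKO embryos lie below every Ctrl embryo for H19, Igf2, meninges, endothelium, blood and microglia, and the radial glia sums of the genotypes overlap.

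Grb10 and Plagl1 were split by embryo in dcKO. Grb10 had a log2 fold change against Ctrl of -0.44 ± 0.28 (SE, edgeR adjusted p = 0.316) and Plagl1 of -0.22 ± 0.29 (edgeR adjusted p = 0.641). Without dcKO replicate 2, the embryo with 48.2 CPM of Cnot3, they were -0.89 (edgeR adjusted p = 0.00784) and -0.72 (edgeR adjusted p = 0.0125), where 830 genes were lower and 1648 higher at an edgeR adjusted p under 0.05, near their cKO values of -0.88 and -0.65. Without dcKO replicate 3 they were -0.23 (edgeR adjusted p = 0.441) and 0.02 (edgeR adjusted p = 0.941). With GC correction over all embryos they were -0.62 (edgeR adjusted p = 0.125) and -0.57 (edgeR adjusted p = 0.152). The 5 mutant embryos other than dcKO replicate 2 were below every Ctrl embryo for both genes. Rian was at 35.6, 73.2 and 33.5 CPM in dcKO, with replicate 2 alone above Ctrl, and its log2 fold change of 0.44 ± 0.31 (SE, edgeR adjusted p = 0.362) became -0.01 without replicate 2, 0.64 without replicate 3 and -0.19 with GC correction. Meg3 was at 2.42, 5.98 and 5.13 CPM, within or below the Ctrl range, with a log2 fold change of -0.49 ± 0.39 (SE, edgeR adjusted p = 0.425). It was -0.75 without replicate 2, -0.59 without replicate 3 and -0.59 with GC correction. Without dcKO replicate 1, the lowest embryo, it was -0.19 (edgeR adjusted p = 0.791).

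Direct comparison of dcKO with cKO asked where levels differed between the mutants, of which only dcKO lacks Trp53. The groups also share no number in the embryo code and differ in GC trend. An effect of the loss of Trp53 cannot be told apart from these. edgeR's quasi-likelihood test called 0 of the 10 genes, with 0.00% of all genes tested called up and 0.0146% down, and DESeq2 called 0 (0.0292% up and 0.351% down). At an unadjusted edgeR p under 0.05 there were 0 higher genes and 2 lower, H19 and Mest, against 2.05% and 2.38% of all genes. H19 was the 1 gene whose groups did not overlap, lower in dcKO, as were 3.63% of all genes (2.62% were higher), and its log2 fold change was -0.87 ± 0.20 (SE), with an adjusted p of 0.633 by edgeR and 0.0349 by DESeq2. By DESeq2 without a fold limit H19 was the 1 gene of the set that was lower, as were 0.402% of all genes. With GC correction edgeR called 0 of the 10 genes (0.0590% of all genes down). Mest had -0.71 ± 0.28 (SE) with an edgeR adjusted p of 0.889, -0.95 without dcKO replicate 2, -0.50 without dcKO replicate 3 and -0.81 with GC correction. Over all embryos Igf2 was at -0.85 (edgeR adjusted p = 0.889) and Dlk1 at -0.22 (edgeR adjusted p = 0.987). Without dcKO replicate 3, Igf2 at -1.58 (edgeR adjusted p = 0.0148) and Dlk1 at -1.59 (edgeR adjusted p = 0.0207) were called lower, in a fit that called 6.45% of all genes lower and 2.58% higher. With GC correction in that fit they were at -1.12 (edgeR adjusted p = 0.0870) and -1.32 (edgeR adjusted p = 0.0948), and neither was called. For Plagl1 and Grb10 the difference was 0.44 for both, with SE of 0.29 and 0.28, and it was -0.07 and -0.01 without dcKO replicate 2, 0.68 and 0.64 without dcKO replicate 3, and 0.30 and 0.39 with GC correction.

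Other imprinted genes, the IGF pathway and factors that maintain imprints were described from lists. For the genes of these lists, values with GC correction or with an embryo left out are not given. Of 53 other imprinted genes 33 were tested, and edgeR called 0 in either mutant (at an unadjusted p under 0.05, 6 higher and 4 lower in cKO and 8 higher and 4 lower in dcKO). Of all genes tested, 15.3% were higher and 11.7% lower in cKO by that rule, and 18.0% and 11.2% in dcKO. DESeq2 called 1 higher and 1 lower in cKO and 1 higher in dcKO, with 4.94% and 3.87% of all genes in cKO and 4.66% and 3.79% in dcKO. Their medians were -0.06 in cKO and 0.22 in dcKO on the log2 scale, against 0.01 and 0.11 over all genes tested. Qpct, an enzyme that cyclises N-terminal glutamine, was at 3.59, 2.33 and 2.74 CPM in Ctrl, 6.71, 7.59 and 6.15 in cKO and 9.99, 6.87 and 8.03 CPM in dcKO, above every Ctrl in each mutant embryo. By DESeq2 it rose with log2 fold changes of 1.22 (adjusted p = 0.00149) and 1.49 (adjusted p = 9.39e-05). Peg13, a noncoding RNA, was at 71.5 to 75.9 CPM in Ctrl, 31.7 to 41.9 in cKO and 24.7 to 62.9 CPM in dcKO, and fell by 1.04 on the log2 scale in cKO (DESeq2 adjusted p = 0.0174).

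The 3 most abundant genes of that list were Nnat, Copg2 and Ndn. Nnat, a proteolipid of the developing brain, was at 576 to 753 CPM in Ctrl, 310.0 to 424 in cKO and 276 to 471 CPM in dcKO, with a log2 fold change of -0.88 in cKO (DESeq2 adjusted p = 0.0100) that fell short of the fold limit. Copg2, the antisense neighbour of Mest, had 0.65 in cKO and 0.78 in dcKO (DESeq2 adjusted p = 0.0496 and 0.0165), and Ndn, a MAGE family protein, had -0.85 in cKO (DESeq2 adjusted p = 0.0471). Nnat and Ndn were below every Ctrl embryo in all cKO embryos, like Grb10 and Plagl1.

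In the IGF pathway 24 of 29 genes were tested, and edgeR called 0 in either mutant. At an unadjusted p under 0.05, 2 were higher and 6 lower in cKO, against 15.3% and 11.7% of all genes. In dcKO 1 was higher and 6 lower, against 18.0% and 11.2% of all genes. DESeq2 called 1 higher and 2 lower in cKO, where it called 4.94% of all genes higher and 3.87% lower. In dcKO it called 2 lower, as it did 3.79% of all genes. The medians were -0.18 and -0.25, against 0.01 and 0.11 over all genes tested. Akt1, the kinase downstream of the IGF1 receptor, was at 438, 398 and 285 CPM in Ctrl, 114, 146 and 120 CPM in cKO and 52.0, 93.4 and 217 CPM in dcKO. All mutant embryos were below Ctrl, and by DESeq2 it fell by 1.58 (adjusted p = 0.00512) and by 1.67 on the log2 scale (adjusted p = 0.00309). Igfbpl1, an IGF binding protein relative of neural progenitors, fell by 1.53 in cKO (DESeq2 adjusted p = 6.65e-04) and by 1.05 in dcKO (DESeq2 adjusted p = 0.0222) on the log2 scale. Grb14, an adaptor related to Grb10, rose in cKO with a log2 fold change of 1.60 (DESeq2 adjusted p = 0.0322) from levels of 1.05 to 2.57 CPM in Ctrl to 3.54 to 7.37 CPM. The 3 most abundant were Igfbp5, Igf2bp2 and Igfbp2, binding proteins of IGF or of Igf2 mRNA, with log2 fold changes between -0.58 and 0.31 and no edgeR adjusted p below 0.338 in either mutant.

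Among the 15 imprint control factors 12 were tested, and edgeR called 0 in either mutant. At an unadjusted p under 0.05, 0 were higher and 4 lower in cKO, against 15.3% and 11.7% of all genes. In dcKO 1 was higher and 4 lower, against 18.0% and 11.2% of all genes. DESeq2 called 1 lower in cKO and 0 in dcKO, against 3.87% and 3.79% of all genes lower. The medians were -0.20 and 0.01, against 0.01 and 0.11 over all genes tested. Tet3, a dioxygenase that oxidises methylcytosine, was at 197, 164 and 149.98 CPM in Ctrl, 68.9, 71.2 and 62.0 in cKO and 56.4, 127 and 76.1 CPM in dcKO. It fell by 1.35 on the log2 scale in cKO (DESeq2 adjusted p = 6.35e-04), and dcKO replicate 2 was the mutant closest to Ctrl, as for Grb10. Trim28, Uhrf1 and Dnmt1, which keep imprint methylation in place, were the 3 most abundant. Dnmt1 was at 463 to 515 CPM in Ctrl, 346 to 356 in cKO and 247 to 393 CPM in dcKO, with a log2 fold change of -0.68 in dcKO (DESeq2 adjusted p = 0.0110), below the fold limit. Methylation itself was not measured in these libraries.

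**Figure D5:**
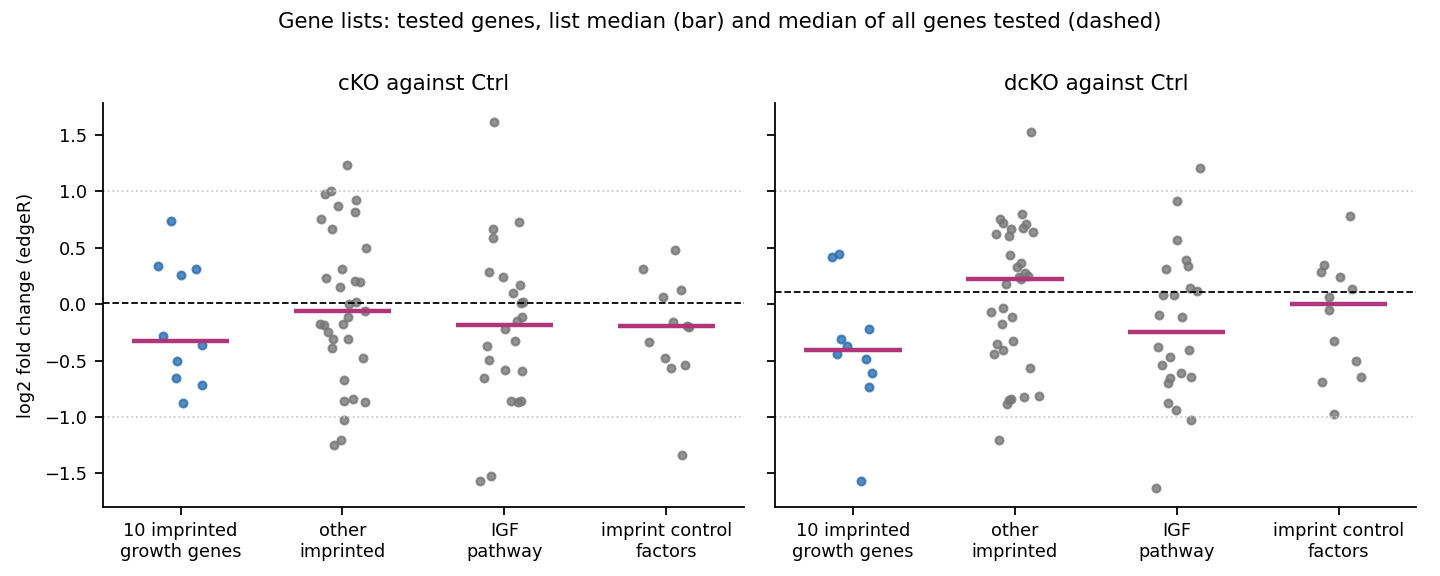
Log2 fold change by edgeR of each tested gene in the 10 imprinted growth genes, the 33 other imprinted genes, the 24 IGF pathway genes and the 12 imprint control factors, in cKO (left) and dcKO (right) against Ctrl, with the list median (bar) and the median of all genes tested (dashed line). The medians of the 10 genes are -0.32 and -0.41, against 0.01 and 0.11 for all genes tested.

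The genes with the pattern most like each member over the 9 embryos were named by Pearson r of log2 CPM among all genes tested. For Grb10 they were Txn1, Bzw2 and Dynll2 (r of 0.994 to 0.992), and for Plagl1 they were Zfp275, Tmem183a and Golga7 (r of 0.996 to 0.991). Igf2 was most like Gm7902, Pcdh1 and Itga2b (0.992 to 0.981), and Dlk1 was most like Ipo4, Kdm4b and Fbf1 (all 0.991). Peg3 had Mrpl35, Slc6a15 and Zfp984 (0.992 to 0.982). The pattern of H19 was followed by Adra2a, Dlc1 and Ednra (0.958 to 0.941), that of Mest by Lcp1, Col12a1 and Plek (0.965 to 0.957), that of Igf2r by Ap2b1, Ipo9 and Ddi2 (0.961 to 0.942), that of Meg3 by Gm46349, Neurl1b and Efna3 (0.956 to 0.922) and that of Rian by Pik3cb, Rps27l and Sh3kbp1 (0.942 to 0.928). Col12a1 encodes a collagen, Ednra a receptor of mural and mesenchymal cells, and Lcp1 and Plek are known from blood and immune cells. These are the best of 13680 genes over only 9 embryos that share genotype, depth and GC trend, and they are descriptions without a test. Among the 10 genes themselves, H19 and Mest had an r of 0.76.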

How the data were processed

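Cortical RNA from single E12.5 embryos (3 Ctrl, 3 cKO, 3 dcKO) had been sequenced as stranded poly(A) libraries. The deposited values are raw counts, the reads the authors assigned to each of 57010 Ensembl genes with featureCounts after trimming with Cutadapt and alignment to mm39 with STAR. Versions, the annotation release and the strand option are not given in the sources used here.

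Embryos were assigned to genotypes by their labels. The 13680 genes that exceeded 10 reads in all 9 embryos (99.5 to 99.7% of the reads) were fitted together in edgeR 4.0.16 (TMM factors, quasi-likelihood test, all 9 embryos, no covariate), with DESeq2 1.42.0 and limma 3.58.1 (voom) as alternatives, in R 4.3.3. The SE is the log2 fold change divided by the square root of F. CPM used the TMM factors. Exact permutation tests were two-sided, and 3 against 3 embryos cannot give a p below 0.1. GC content was that of the longest GENCODE transcript of each gene on GRCm38, known for 13561 genes (99.1%). Its loess trend (span 0.3) per embryo entered the corrected fit as offsets. This correction, the 6-embryo and block rules without a fold limit and the DESeq2 rule without a fold limit were chosen after seeing the data. The scripts were tested on simulated data.

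The members and lists were chosen with earlier results of these data known. All 10 members are named. Of each other list, the genes called by edgeR or else by DESeq2 (up to 6) and the 3 with the highest mean CPM are named, and 3 genes are named per member for likeness. Replicate numbers did not pair the embryos. Positions on mm39 were not used here. The labels give no batch by name. A number in the embryo code that some Ctrl and cKO embryos share was tried as a block in that comparison alone, since dcKO shares too few of them.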

Additional observations from a re-analysis of the deposited data

Results flagged for a closer look

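H19 was singled out because every cKO embryo lay above the Ctrl mean of 221 CPM (225 to 305 CPM) and every dcKO embryo below it (134 to 158 CPM). Between the mutants, dcKO minus cKO, the log2 fold change was -0.87, with an adjusted p of 0.633 by edgeR's quasi-likelihood test and 0.0349 by DESeq2, so the tools differ on the difference itself. With GC correction it was -0.62 (edgeR adjusted p = 0.714). Uncorrected, it was -0.86 without dcKO replicate 2 (edgeR adjusted p = 0.799) and -0.93 without dcKO replicate 3 (edgeR adjusted p = 0.0159, where 13.1% of all genes were lower). At an unadjusted edgeR p under 0.05 in this comparison, 7 of 9 tested blood genes were lower, 6 of 7 for microglia, 5 of 10 for endothelium, 3 of 7 for pericytes and 0 of 11 for meninges. Of all genes 2.38% were lower, and the part of such cells was not tested. Groups of 3 embryos were too small to test single embryos as outliers.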

How the results depend on the processing

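The main test called 0 of the 10 genes in each comparison, and it called 2, 0 and 2 of all genes in cKO, dcKO and dcKO against cKO, where DESeq2 called 1206, 1157 and 52. DESeq2 called 1 of the 10 genes in dcKO (Igf2), as did edgeR at an adjusted p under 0.1, which called 1066 of all genes there. DESeq2 without a fold limit called 1 (Grb10) in cKO, 2 (H19 and Igf2) in dcKO and 1 (H19) in dcKO against cKO. GC correction called 1 (Grb10) in cKO, and the fit of 6 embryos without a fold limit called 6, or 5 with GC correction. Leaving out 1 embryo gave 0 in cKO and 0 to 2 in dcKO and in dcKO against cKO, in edgeR and in DESeq2, where 2 are Igf2 and Dlk1 without dcKO replicate 3. Those fits called 3245 (edgeR) and 3297 (DESeq2) of the 13680 genes in dcKO and 1236 and 1435 in dcKO against cKO. With GC correction the ranges were 0 to 1, 0 to 2 and 0, where the 2 in dcKO are Igf2 with Grb10 (without dcKO replicate 2) or with Dlk1 (without dcKO replicate 3). In dcKO these corrected fits called 1485 and 947 of the 13561 genes, or 11.0% and 6.98%. Of 280 values of single genes under settings other than leaving out an embryo, 276 kept direction and side, 2 became calls and 2 reversed, both with GC correction: Rian in dcKO at -0.19 and Igf2r in dcKO against cKO at 0.038. With an embryo left out, 10 of 270 values reversed. The ranges in dcKO were -0.013 to 0.64 for Rian and -0.72 to 0.024 for Plagl1. In dcKO against cKO they were -1.59 to 0.17 for Dlk1, -0.39 to 0.17 for Meg3, -0.085 to 0.25 for Peg3, -0.065 to 0.68 for Plagl1, -0.0099 to 0.64 for Grb10 and -0.12 to 0.047 for Igf2r. Upper-quartile scaling shifted the members in cKO by 0.10 to 0.11 on the log2 scale, with no change of direction, and a block for the number in the embryo code called 0 of the 10 genes and 1986 of all genes in cKO. At an edgeR adjusted p under 0.05 with no fold limit the block gave 6 (Grb10, Plagl1, Rian, Peg3, H19 and Mest), where 6151 of all genes passed. Its difference rests only on the embryos that have a partner of the other genotype, and 1 Ctrl and 1 cKO embryo have none. These pairs disagreed in direction for H19 (166 and 230.1 CPM in Ctrl, 305 and 225 CPM in cKO). They also did for Mest (214 and 252 CPM, then 414 and 239 CPM), but not for the other genes named. So few embryos cannot decide whether these genes differ. Embryos with the same replicate number did not deviate together (r of -0.54 to 0.13 over 9 pairs), and the replicate block called 0 of the 10 genes and kept the direction of all 30 values. For a shared number in the embryo code, r was 0.19 (Ctrl replicate 1 and cKO replicate 2), -0.01 (Ctrl replicate 2 and cKO replicate 3) and -0.54 (Ctrl replicate 3 and dcKO replicate 3). The cause of each change was not tested. The depth limits Igf2, Dlk1 and Meg3 most, since they had under 300 reads in every embryo.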
